A study of Mus musculus with 12 samples.

Results

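Only 4 of 21900 protein-coding genes, Mapt, Zic1, Tbx20 and Alx1, were expressed in both groups of the Fadd line and near silent in both groups of the Casp8 line. They were chosen by their levels in TPM, a unit that scales counts for gene length and library size. The mean over 3 libraries had to be under 0.1 TPM in each Casp8-line group and at least 1 TPM in each Fadd-line group. Genes whose symbols begin with Hox, Col, Itg, Lam, Oas, Gbp, H2- or Ifi were left out beforehand, although no gene with such a prefix met both limits. Of 10021 protein-coding genes at or above 1 TPM in both Fadd-line groups, these 4 were the ones under 0.1 TPM in both Casp8-line groups. The opposite pattern, expression in the Casp8 line with near silence in the Fadd line, was met by 44 genes. Expression only in the Fadd line thus describes group means, since reads of all 4 genes were also present in some Casp8-line libraries.

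RNA was sequenced from 12 cultures of mouse embryonic fibroblasts, 3 in each of 4 groups, untreated and harvested 24 h after plating. The cells had been immortalised with SV40 large T antigen, a viral protein that lets primary cells divide without limit. The Fadd line is Fadd -/-, Mlkl -/- and carried an empty vector (Fadd/Mlkl knockout) or ectopically re-expressed Fadd (Fadd put back). The Casp8 line is Casp8 -/-, Mlkl -/- and carried an empty vector (Casp8/Mlkl knockout) or ectopically re-expressed Casp8 (Casp8 put back). All 4 groups thus share the Mlkl deletion, the viral antigen and a vector. FADD is the adaptor that recruits caspase-8 to death receptors, and MLKL is the effector of necroptosis. The labels call the cultures independent and describe no second line of either genotype, so genotype and line cannot be told apart in any comparison of the lines.

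The levels of Fadd and Casp8 moved in the direction of their labels. Fadd lay at 0.01 to 0.02 TPM in the Fadd/Mlkl knockout libraries and at 3.05 to 4.24 TPM after Fadd was put back. Casp8 lay at 3.11 to 3.51 TPM in the Casp8/Mlkl knockout libraries and at 28.62 to 76.48 TPM after Casp8 was put back. In the Fadd line Casp8 lay at 10.53 to 17.17 TPM. Casp8 reads thus remained in its knockout, at a lower level, and the total alone does not show a deletion. Mlkl reads were present in every library, at 1.43 to 6.22 TPM, so the total per gene does not show that deletion. Library totals ranged from 33918359 to 59388559 expected counts. Of 10 fibroblast markers, 7 and 8 reached 1 TPM in the Fadd-line groups and 9 in each Casp8-line group, with summed levels of 504 to 693 TPM (knockout) and 812 to 997 TPM (put back) against 1650 to 3270 TPM. Among these, Prrx1, a homeobox gene of limb and face mesenchyme, was at 0.583 ± 0.208 and 0.763 ± 0.461 TPM (SD, n = 3) in the Fadd line and at 59.1 ± 36.4 and 52.8 ± 1.69 TPM in the Casp8 line. The 4 Y-linked genes Ddx3y, Eif2s3y, Kdm5d and Uty summed to 0 TPM in every Fadd-line library and to 12.41 to 62.99 TPM in the Casp8 line. They are among the genes with the opposite pattern. Xist, an X-linked noncoding RNA, had 0 to 5 counts per library in the Fadd line and 0 to 1 in the Casp8 line. The sex of the Fadd line is therefore not read from these genes. The 2 replicate 1 libraries of the Casp8 line stood apart, with the lowest Y-linked sums of their groups (12.41 and 31.03 TPM) and with reads of genes that the other 4 Casp8-line libraries lacked. Gata4, a zinc finger factor of heart development, was at 0.52 and 1.56 TPM in these libraries and at no more than 0.01 TPM in the other 4. The replicate 1 libraries of the Fadd line also stood apart from their groups. The chi-square per gene between them and the other libraries was 387 and 431 in the Fadd/Mlkl knockout and 171 and 286 with Fadd put back, against 74 and 70.2 between replicates 2 and 3. In the Casp8 line it was 264 to 294 for replicate 1, against 52 and 53.5. The count ratios between the lines, the spread, the differences within the Fadd line and the number of genes meeting the rule are given with and without them. Tests between the lines were run with all libraries only.

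Of the 4 genes, 3 encode transcription factors that pattern the embryo. Zic1 is a zinc finger factor of the dorsal neural tube, cerebellum and dorsal somites. Tbx20 is a T-box factor needed for growth and chamber formation of the heart. Alx1 is a paired-type homeobox factor of the mesenchyme that builds the face and skull. The other gene, Mapt, encodes tau, which binds and stabilises microtubules and is best known from the axons of neurons. Factors of this kind are switched on in restricted regions of the embryo, and fibroblasts can keep part of such a regional code in culture.

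The genes lie apart in the genome. On mouse genome mm10, Mapt (ENSMUSG00000018411.17) spans chr11:104231390-104332090 on the plus strand, and Alx1 (ENSMUSG00000036602.14) spans chr10:102998707-103030215 on the minus strand. Tbx20 (ENSMUSG00000031965.15, chr9:24718138-24774303) and Zic1 (ENSMUSG00000032368.14, chr9:91358058-91365810) are both on the minus strand of chromosome 9, far from each other.

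Promoter sequence was on hand for Tbx20 and Zic1. The 250 bases before the RefSeq start of each gene (GRCm38.p6, minus strand, chr9:24774304-24774553 for Tbx20 and chr9:91365769-91366018 for Zic1) are shown 5′ to 3′ because both genes had a CpG-dense promoter, and the capitals mark CG pairs.
Tbx20: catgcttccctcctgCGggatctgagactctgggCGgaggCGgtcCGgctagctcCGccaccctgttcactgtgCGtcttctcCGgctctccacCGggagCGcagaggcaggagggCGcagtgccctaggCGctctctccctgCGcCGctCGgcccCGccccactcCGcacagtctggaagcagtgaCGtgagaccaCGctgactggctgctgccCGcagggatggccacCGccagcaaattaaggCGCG
Zic1: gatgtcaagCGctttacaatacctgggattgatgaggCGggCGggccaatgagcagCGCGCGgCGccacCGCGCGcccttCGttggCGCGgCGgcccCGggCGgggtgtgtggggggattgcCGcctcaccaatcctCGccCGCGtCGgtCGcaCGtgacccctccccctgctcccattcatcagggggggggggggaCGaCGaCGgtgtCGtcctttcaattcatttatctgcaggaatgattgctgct
Over the 300-base window that also takes in the 50 bases after the start, Tbx20 had 26 CG pairs, a GC content of 68.3% and an observed over expected CpG ratio of 0.745. Zic1 had 31 CG pairs, a GC content of 65.3% and a ratio of 0.969. The median over 32841 RefSeq promoter windows of the same length was 7 CG pairs, 52.7% GC and a ratio of 0.384. A higher ratio than that of Zic1 was found in 7.69% of the windows, and a higher ratio than that of Tbx20 in 25.4%. The motif TATAAA, searched on both strands, had no match in either window and was present in 13.6% of all windows. The motif GGGCGG had 2 matches in Tbx20 and 3 in Zic1, with 35.7% of windows holding at least 1. The motif CCAAT had 0 matches in Tbx20 and 2 in Zic1, with 37.4% of windows holding at least 1. Such matches describe the letters and are not binding sites.

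The levels of the 4 genes in every library are shown first, since the spread between cultures differed from gene to gene. In bulk RNA, fewer cells that express a gene and less RNA per cell cannot be told apart. The rule set the levels of all 4 groups, so the gap between the lines is given as a description with no test.

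**Figure D1:**
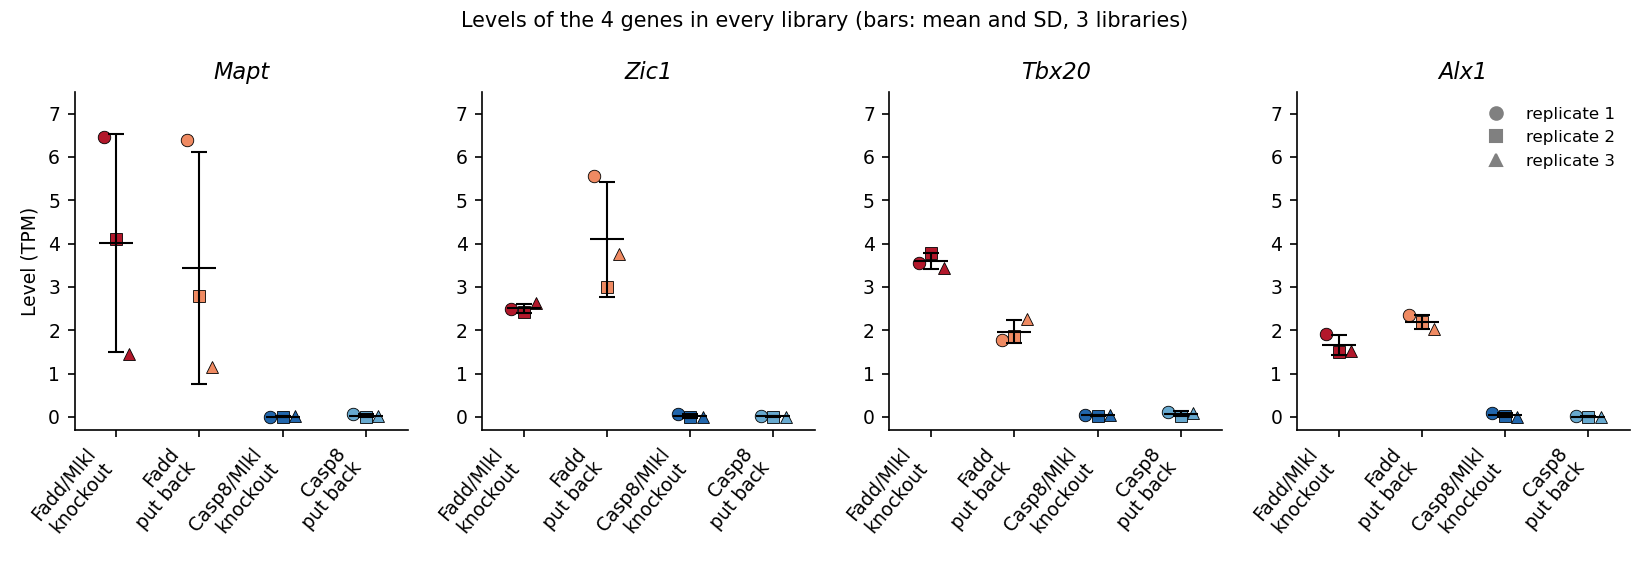
Level of Mapt, Zic1, Tbx20 and Alx1 in TPM (y axis, linear) in each of the 12 libraries, by group (x axis), with symbols for replicate numbers and bars for the mean and SD of 3 libraries. Mapt spans 1.16 to 6.46 TPM within the Fadd line, while all Casp8-line points lie at or under 0.11 TPM.

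Zic1 was at 2.48, 2.42 and 2.62 TPM in the Fadd/Mlkl knockout libraries (replicates 1 to 3) and at 5.57, 2.99 and 3.75 TPM with Fadd put back. In the Casp8 line it was at 0.07, 0 and 0 TPM in the knockout libraries and at 0.03, 0 and 0 TPM with Casp8 put back. The knockout cultures of the Fadd line were close together and all lay below the put-back cultures, among which replicate 1 stood highest. Both Casp8-line libraries with any reads were the replicate 1 libraries that stood apart, with 9 expected counts each. In order, the group means were 4.1 ± 1.33 TPM (SD, n = 3) with Fadd put back, 2.51 ± 0.103 TPM in the Fadd/Mlkl knockout, 0.0233 ± 0.0404 TPM in the Casp8/Mlkl knockout and 0.01 ± 0.0173 TPM with Casp8 put back. The last of these differ by less than their spread.

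Tbx20 was at 3.56, 3.79 and 3.43 TPM in the Fadd/Mlkl knockout and at 1.77, 1.87 and 2.26 TPM with Fadd put back. It was at 0.04, 0.02 and 0.04 TPM in the Casp8/Mlkl knockout and at 0.11, 0.02 and 0.1 TPM with Casp8 put back. All knockout cultures of the Fadd line lay above all put-back cultures, and both groups were tight. Tbx20 was the one gene of the 4 with reads in all 6 Casp8-line libraries, 95 expected counts in sum. The order of the group means was 3.59 ± 0.182 TPM, 1.97 ± 0.259 TPM, 0.0767 ± 0.0493 TPM (Casp8 put back) and 0.0333 ± 0.0115 TPM (Casp8/Mlkl knockout), and the Casp8-line groups overlapped.

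Alx1 had the lowest level of the 4 genes in the knockout libraries of the Fadd line by group mean, at 1.91, 1.5 and 1.53 TPM. With Fadd put back it was at 2.36, 2.19 and 2.02 TPM, so the groups did not overlap, although the nearest cultures were only 1.91 and 2.02 TPM. In the Casp8 line it was at 0.09, 0.02 and 0 TPM in the knockout and at 0.02, 0 and 0 TPM with Casp8 put back. The group means ran from 2.19 ± 0.17 TPM (Fadd put back) and 1.65 ± 0.229 TPM to 0.0367 ± 0.0473 TPM and 0.00667 ± 0.0115 TPM (Casp8 put back), and the Casp8-line means differ by less than their spread.

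Mapt was at 6.46, 4.11 and 1.45 TPM in the Fadd/Mlkl knockout and at 6.39, 2.78 and 1.16 TPM with Fadd put back. In the Casp8 line it was at 0, 0 and 0.02 TPM in the knockout and at 0.06, 0 and 0.01 TPM with Casp8 put back. Replicate 1 was high and replicate 3 low in both Fadd-line groups, and the groups overlapped over almost their whole range. The group means of 4.01 ± 2.51 and 3.44 ± 2.68 TPM differ by far less than their spread, as do the Casp8-line means of 0.00667 ± 0.0115 TPM (knockout) and 0.0233 ± 0.0321 TPM (put back).

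Summed over libraries, Mapt had 6387 expected counts in the Fadd line against 22 in the Casp8 line, Tbx20 11370 against 95, Zic1 5940 against 18 and Alx1 1983 against 14. As shares of all counts, the ratio of the lines was 291 for Mapt (95% exact interval 192 to 465), 120 for Tbx20 (98.1 to 149), 331 for Zic1 (209 to 559) and 142 for Alx1 (84.5 to 260). These intervals cover counting error only and leave out the spread between cultures. Leaving out a single replicate 1 library of the Casp8 line moved the ratios of Mapt and Alx1 beyond their intervals. It kept that of Zic1 inside and brought that of Tbx20 at most to its limit of 149. Of the 22 Casp8-line counts of Mapt, 16 came from put-back replicate 1, and without that library the ratio was 877 (403 to 2390). Of the 14 counts of Alx1, 9 came from knockout replicate 1, and without it the ratio was 335 (143 to 1030). For Zic1 the ratio was 557 (293 to 1220) without knockout replicate 1 and 544 (286 to 1190) without put-back replicate 1. Without both replicate 1 libraries of the Casp8 line, Zic1 had no counts left there and was at least 1320-fold higher in the Fadd line (against 3 counts over the line), and the ratio of Tbx20 was 164 (123 to 225). The 4 genes together summed to 9.03 to 16.09 TPM per Fadd-line library. In the Casp8 line the sums were 0.2, 0.04 and 0.06 TPM in the knockout and 0.22, 0.02 and 0.11 TPM with Casp8 put back, with the highest value of each group in replicate 1. The mean Casp8-line sum was 0.924% of the mean Fadd-line sum with all 6 libraries and 0.49% without both replicate 1 libraries. TPM were deposited to 0.01, so the lowest values are coarse.

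Near the limits of the rule the genes form no sharp class. Inside the lower limit, the higher Casp8-line mean was 0.0767 TPM for Tbx20, 0.0367 for Alx1 and 0.0233 for Zic1, and just outside it was 0.117 TPM for BC024063, 0.127 for Susd4 and 0.13 for Dnajc22. Inside the upper limit, the lower Fadd-line mean was 1.65 TPM for Alx1, 1.97 for Tbx20 and 2.51 for Zic1. Just outside it was 0.993 TPM for Ptges, which makes prostaglandin E, and 0.94 for both Dlx4, another homeobox gene, and Gngt2, a G protein subunit. Ptges was at 0.9, 0.6 and 1.48 TPM in the Fadd/Mlkl knockout and at 3.84, 4.07 and 4.62 TPM with Fadd put back. A lower limit of 0.05 TPM, or the limits applied to every library, took out Tbx20 and kept the other 3 genes, as did FPKM in place of TPM and leaving out Casp8 put-back replicate 2.

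The spread between Fadd-line cultures was largest for Mapt. Its coefficient of variation (SD as a percent of the mean) was 62.6% in the knockout and 77.8% with Fadd put back, and its highest library held 5.57 times the level of its lowest. Among the 10021 protein-coding genes expressed in both Fadd-line groups, 3.56% had a larger ratio of highest to lowest, and the median ratio was 1.79. Their median coefficients of variation were 21.8% and 17.2%. The highest Mapt library of each group was the replicate 1 library that stood apart. Without both, the ratio of highest to lowest over the remaining 4 libraries was 3.54 for Mapt, exceeded by 1.54% of the reference genes, whose median was then 1.34.

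The 3 transcription factor genes spread less than Mapt. Zic1 varied by 4.09% in the knockout and by 32.3% with Fadd put back, where 1 culture was high, and its ratio of highest to lowest was 2.3, exceeded by 26.9% of the reference genes. Tbx20 varied by 5.07% and 13.2%, with a ratio of 2.14 (exceeded by 32.6%), most of it between the groups. Alx1 varied by 13.9% and 7.76%, with a ratio of 1.57 that was exceeded by 67% of the reference genes. The high put-back culture of Zic1 was again replicate 1. Without both replicate 1 libraries of the Fadd line the ratio was 1.55 for Zic1 (exceeded by 26.1%), 2.03 for Tbx20 (8.14%) and 1.46 for Alx1 (34.4%).

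The cultures of the Fadd line can be joined by replicate number, because libraries of the same number deviated together from their group means. Mapt had the same order of replicate numbers in both groups, and the other 3 genes did not. That order was shared in 55.0% of the reference genes, so a shared order alone does not set Mapt apart. The knockout level divided by the put-back level of the same number was 1.01, 1.48 and 1.25 for Mapt and 2.01, 2.03 and 1.52 for Tbx20. It was 0.445, 0.809 and 0.699 for Zic1 and 0.809, 0.685 and 0.757 for Alx1. All 3 pairs went upward for Tbx20 and downward for Zic1 and Alx1, which follows from groups that did not overlap. The pairs of Mapt went upward too, but the first was nearly level. How many of all genes keep 1 direction in 3 pairs was not counted, so nothing is read from these directions.

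**Figure D2:**
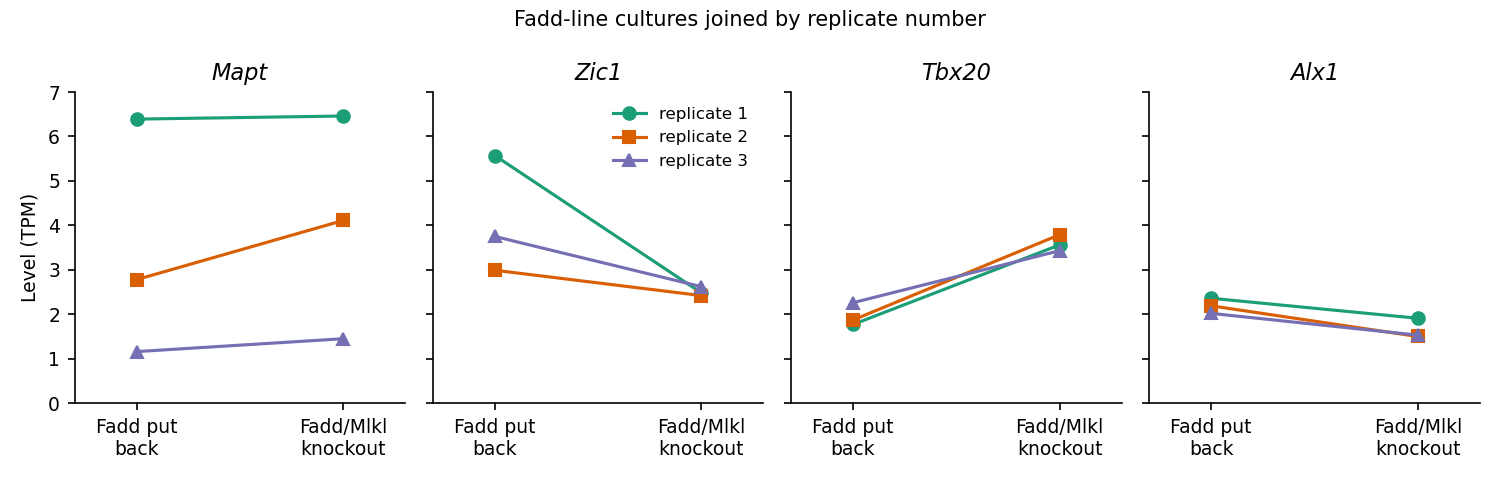
Level in TPM (y axis, linear from 0) of each gene in the Fadd line, with put-back and knockout cultures (x axis) joined by replicate number. Mapt lines lie at 3 separate heights, from 1.16 to 6.46 TPM, with replicate 1 nearly level and replicate 2 rising from 2.78 to 4.11 TPM. All 3 Tbx20 lines go from 1.77 to 2.26 TPM up to 3.43 to 3.79 TPM.

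The comparison within the Fadd line asks what changed when Fadd was put back, and the rule bears on it. A floor under both groups leaves out genes that were low in either of them, such as Ptges. The rule was met by 18 genes on the knockout groups alone and by 27 on the put-back groups alone, against 4 on both. Those counts also drop the Casp8-line limit of the other condition, so the fall to 4 is not due to the floor alone. Cmbl, for one, failed only on its Casp8 put-back mean of 0.133 TPM. The floor still leans the members toward small differences, and nothing is read from how many were called. None of the 4 genes passed an adjusted p of 0.05 (edgeR quasi-likelihood test, Benjamini-Hochberg over all genes), beside 1.52% of the 16396 genes tested. At an unadjusted p under 0.05, 1 of the 4 genes passed, beside 10.3% of all genes. The cultures of the groups did not overlap for 3 of the 4 genes, beside 16.4% of all genes tested. Among all genes, knockout cultures all lay above put-back cultures for 4.53%, as they did for Tbx20, and all below for 11.9%, as they did for Zic1 and Alx1.

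Tbx20 had the largest change. Its level was 2.04-fold higher in the Fadd/Mlkl knockout, a log2 difference of 1.03 with an SE of 0.333, and its adjusted p was 0.234 with edgeR (0.0105 before adjustment). The same difference passed with DESeq2 (adjusted p = 0.0199, beside 4.27% of all genes called) and with limma-voom (adjusted p = 0.0246, beside 1.22%). It also passed in edgeR when only the 6 Fadd-line libraries were fitted (adjusted p = 0.0491, beside 1.18%), and it missed the threshold with replicate number as a block within each line (log2 1.04, adjusted p = 0.0574, beside 2.71%). Whether Tbx20 is called therefore depends on the model, while the log2 difference stayed between 0.84 and 1.16 under the 16 alternatives. Without both replicate 1 libraries of the Fadd line it was 0.92 (SE 0.427, edgeR adjusted p = 0.707). That fit was chosen after seeing the data.

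The other 3 differences passed in no fit. In edgeR over all 12 libraries the log2 difference, knockout minus put back, was -0.61 for Zic1 (SE 0.745, adjusted p = 0.971), -0.34 for Alx1 (SE 0.635, adjusted p = 1) and 0.41 for Mapt (SE 0.825, adjusted p = 1). Errors were smaller in some other fits. For Zic1 the log2 difference was -0.61 (SE 0.247, adjusted p = 0.469) in edgeR on only the 6 Fadd-line libraries and -0.58 (SE 0.191, adjusted p = 0.235) with the replicate block within each line. For Alx1 these fits gave -0.33 (SE 0.212, adjusted p = 0.758) and -0.35 (SE 0.26, adjusted p = 0.582). These values do not show that the levels were equal. The Mapt difference changed when a single culture was left out. It was -0.19 without Fadd/Mlkl knockout replicate 1, -0.03 without put-back replicate 3 and 1.33 without put-back replicate 1. Each such fit leaves a culture of the same number without its partner, and Mapt levels followed replicate number. With the replicate block within each line the Mapt difference was 0.57 (SE 0.478, edgeR adjusted p = 0.632). Without both replicate 1 libraries of the Fadd line it was 0.68 for Mapt (SE 0.962), -0.4 for Zic1 (SE 0.981) and -0.46 for Alx1 (SE 0.835).

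**Figure D3:**
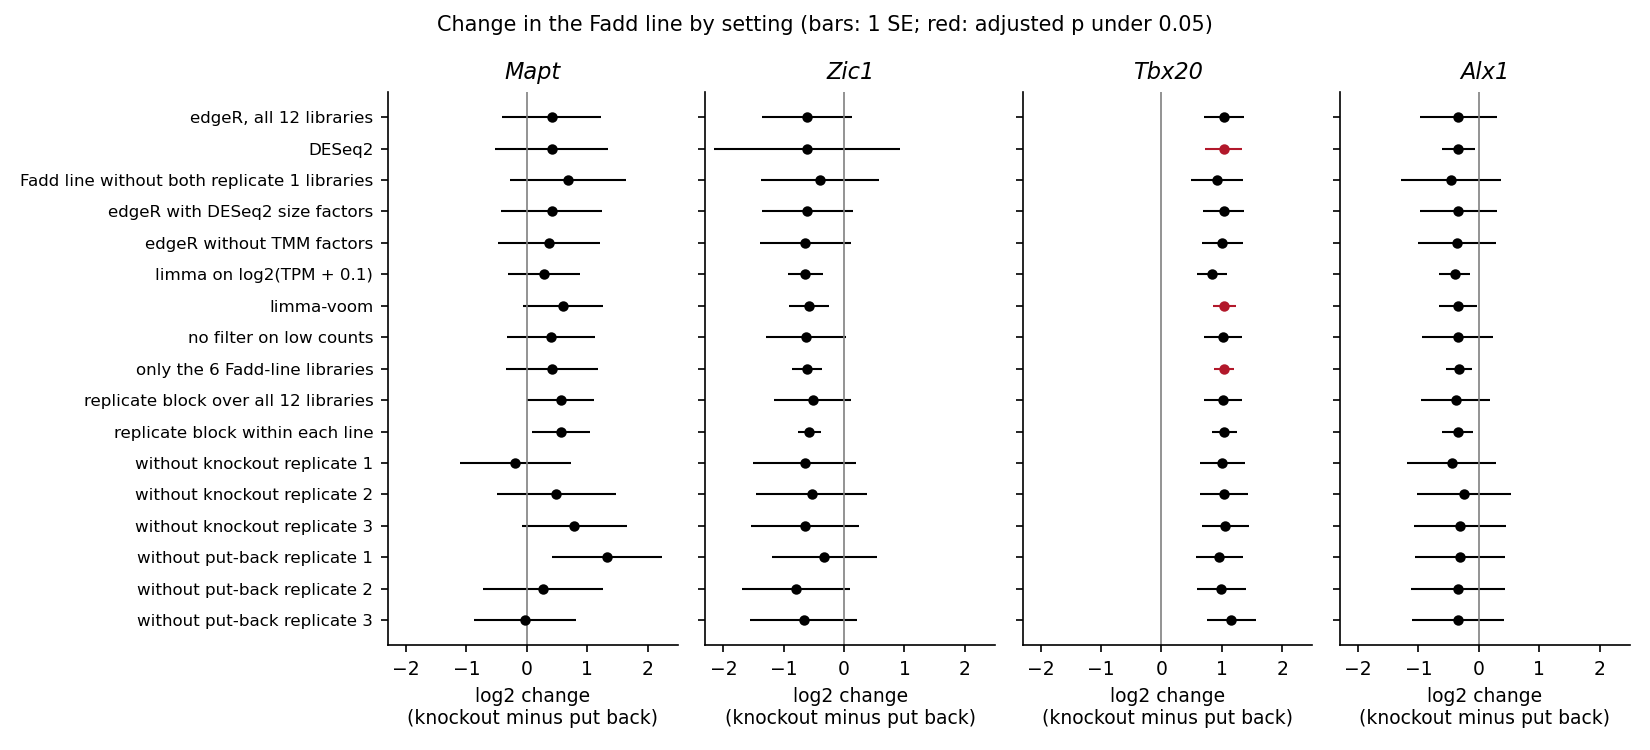
Log2 difference between Fadd/Mlkl knockout and Fadd put back (x axis) for each gene under the model used and each of its 16 alternatives (y axis), with bars of 1 SE and red points for an adjusted p under 0.05. Tbx20 lies between 0.84 and 1.16 throughout and is red under 3 alternatives, while Mapt runs from -0.19 to 1.33.

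The rule capped both groups of the Casp8 line, so knockout and put back are set side by side there with no test. Tbx20 had 39 expected counts in the Casp8/Mlkl knockout and 56 with Casp8 put back, Zic1 had 9 and 9, Mapt 4 and 18 and Alx1 11 and 3.

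Relatives of the 4 genes, picked by family after the members were known, show how far the pattern reaches. Among the ZIC genes, Zic2 ranged from 0.16 to 0.49 TPM in the Fadd line and from 0 to 0.02 TPM in the Casp8 line. Zic4 ranged from 0.21 to 0.61 TPM against 0 to 0.01 TPM, and Zic5 from 0.14 to 0.63 TPM against 0 to 0.25 TPM, where the highest Casp8-line value was put-back replicate 1. These 4 ZIC genes were read in every Fadd-line library, with Zic1 the only one of them above 1 TPM, and the edgeR difference within the Fadd line did not pass for Zic2, Zic4 or Zic5 (adjusted p = 0.955 to 1).

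No relative of Alx1 or Tbx20 described here met the limits of the rule. Alx4 was at or under 0.02 TPM in every library, with 13 expected counts in the Fadd line and 1 in the Casp8 line. Among T-box genes, Tbx15, a factor of limb and trunk mesenchyme, was at 31.33 to 44.82 TPM in the Fadd line and 32.54 to 56.47 TPM in the Casp8 line. Tbx18 was at 2.66 to 5.36 TPM against 5.01 to 10.71 TPM. At low levels, Tbx6 had 80 expected counts in the Fadd line against 10, and Tbx4 had 121 against 463. Tbx6 was highest in the replicate 1 libraries of the Fadd line (0.21 and 0.32 TPM). Tbx3 was at 1.06 to 3.0 TPM against 0.87 to 3.01 TPM, and within the Fadd line its log2 difference of 1.1 (SE 0.367, edgeR adjusted p = 0.249) was close in size to that of Tbx20.

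Other microtubule-associated protein genes were read in both lines. Map2, the dendritic relative of tau, was at 2.24 to 5.08 TPM in the Fadd line and at 8.79 to 60.07 TPM in the Casp8 line, a log2 difference between the lines of -3.48 (SE 0.379, edgeR adjusted p = 0.000163). Map4, the form found in most cell types, was at 11.5 to 18.93 TPM against 21.98 to 51.16 TPM, with a log2 difference of -0.98 (SE 0.184, edgeR adjusted p = 0.00383). Map1b was at 4.92 to 14.06 TPM against 10.4 to 25.45 TPM and Map6 at 7.72 to 10.3 TPM against 9.38 to 14.41 TPM. Of these 5 genes, Mapt was the one with its higher level in the Fadd line. Other relatives were lower. Map1a had more expected counts in the Fadd line (2224 against 1522), with overlapping levels of 0.14 to 0.79 TPM against 0.04 to 0.71 TPM. Map9 had fewer (1935 against 2668), and Map7 was at or under 0.08 TPM in every library.

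**Figure D4:**
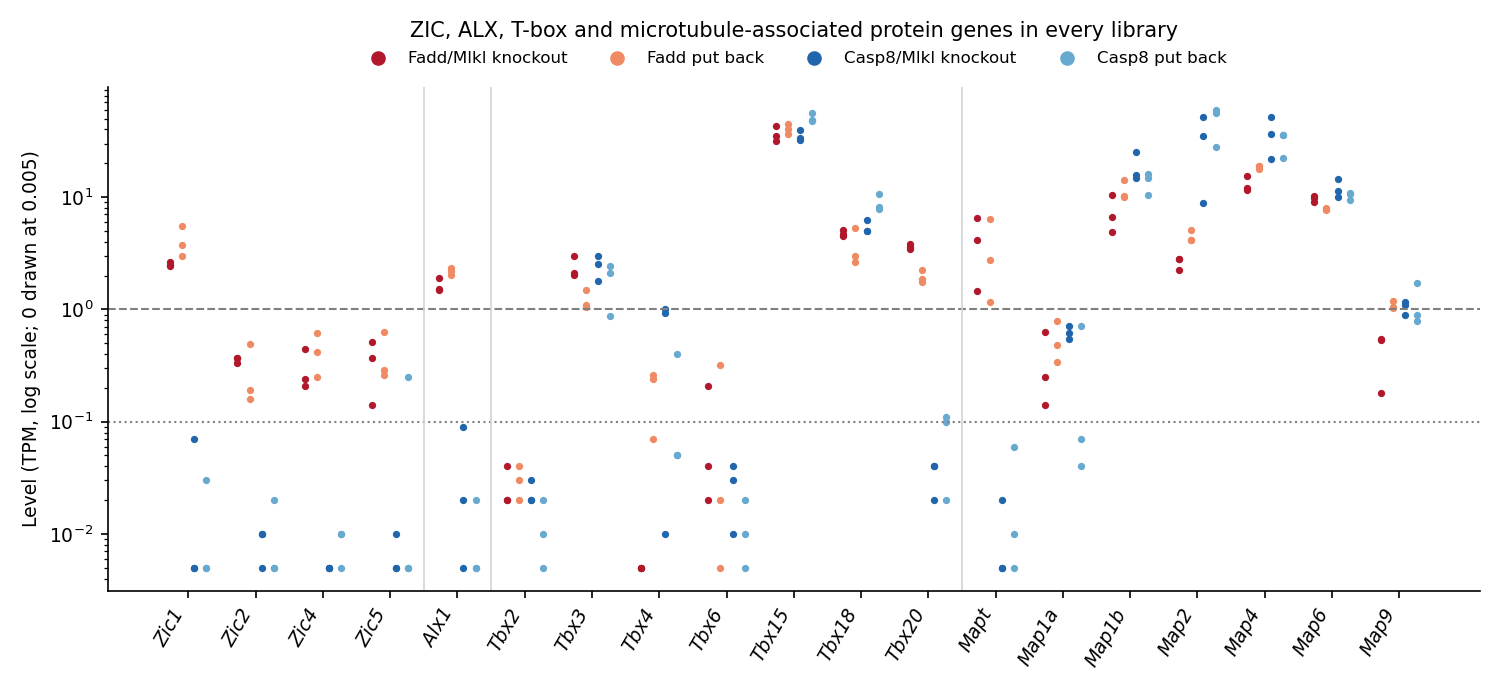
Level in TPM (y axis, log scale, with 0 drawn at 0.005) of ZIC, ALX, T-box and microtubule-associated protein genes (x axis) in each of the 12 libraries, coloured by group, with dashed and dotted lines at 1 and 0.1 TPM. Zic1, Zic2 and Zic4 separate the lines, and Zic5 does so apart from Casp8 put-back replicate 1 (0.25 TPM). Tbx15 lies between 31.33 and 56.47 TPM in all groups, and Map2 is higher in the Casp8 line.

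Markers of other cell types were set beside the members. Of 10 neural and glial markers, 2 reached 1 TPM in each Fadd-line group, 3 in the Casp8/Mlkl knockout and 2 with Casp8 put back, and Rbfox3, Snap25, Sox10 and Olig2 were at 0 in all 12 libraries. Their summed level was 4.8 to 7.23 TPM in the Fadd line, where Mapt was expressed, and 13.5 to 71.0 TPM in the Casp8 line, with Map2 and Tubb3 holding most of the Fadd-line sum. Of 10 skeletal and cardiac muscle markers, 1 reached 1 TPM in each Fadd-line group and 0 in the Casp8 line, with summed levels of 2.5 to 3.36 TPM in the Fadd/Mlkl knockout, 1.23 to 2.56 TPM with Fadd put back and 0.87 to 1.99 TPM in the Casp8 line. These muscle sums overlapped between the Fadd-line groups. Sums of 3 other lists did not. Smooth muscle markers summed to 6.09 to 13.4 TPM in the Fadd/Mlkl knockout and 15.4 to 42.2 TPM with Fadd put back, epithelial markers to 0.4 to 2.19 TPM and 2.73 to 16 TPM, and fibroblast markers to 504 to 693 TPM and 812 to 997 TPM. All 3 were lower in the knockout, where Tbx20 was higher and Zic1 and Alx1 were lower, and their part in those differences was not tested. No leukocyte marker reached 1 TPM in any group.

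Zic1, Tbx20 and Alx1 belong to a list of 152 homeobox and other patterning transcription factor genes, of which 76 were tested. Within the Fadd line 1 of the 76 was called higher in the knockout, Pax9, and 2 were called lower, Tshz3 and Emx2, beside 0.287% and 1.24% of all genes. Their levels were low, with means (knockout and put back) of 0.18 and 0.02 TPM for Pax9 and 0.06 and 0.653 TPM for Tshz3. Emx2 was at 0.487 and 1.96 TPM. The median log2 difference of the list was -0.026, against 0.004 over all genes tested. Between the lines, 16 of the 73 tested genes of the list other than the members were called higher in the Fadd line and 24 higher in the Casp8 line, beside 8.15% and 11.4% of all genes (edgeR, adjusted p under 0.05). Lhx9 shows the opposite pattern to the members, at 0.0767 ± 0.0115 and 0.07 ± 0.01 TPM in the Fadd line (knockout and put back, SD, n = 3) and 21.3 ± 10.9 and 21.6 ± 3.45 TPM in the Casp8 line. Irx3 and Meox2 also met the opposite rule. Patterning factors were therefore called in both directions between these lines, and the 3 members are the ones that met the limits on the Fadd side.

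The list of cytoskeleton, muscle-type and motor genes held 216 genes, with 103 tested and Mapt not among them. Within the Fadd line Myo6, an actin motor, was higher in the knockout (log2 1.14, SE 0.231, edgeR adjusted p = 0.0355) and Tubb2b, a tubulin, was lower (log2 -1.44, SE 0.25, edgeR adjusted p = 0.015). No other gene of the list passed, and its median log2 difference was -0.0989. Among all genes, 0.287% were called higher in the knockout and 1.24% lower. Between the lines, 9 of the 103 were called higher in the Fadd line, beside 8.15% of all genes, and 30 higher in the Casp8 line, beside 11.4%.

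Neighbouring genes were examined within 100 kb of each member. Around Mapt, Kansl1, which ends 1139 bases away, was at 4.51 to 6.36 TPM in the Fadd line and 4.76 to 7.62 TPM in the Casp8 line, so the gene next to Mapt was read in both lines at like levels. Crhr1, on the other side, had 28 and 2 expected counts in the Fadd-line groups (knockout and put back) and 0 in the Casp8 line. Around Zic1, Zic4 overlaps the gene on the opposite strand and had 319 expected counts in the Fadd line against 2 in the Casp8 line. Whether the counting used strand is not stated in the labels, so reads in the overlap of Zic1 and Zic4 could have been assigned to either. Around Tbx20, the lincRNA Gm29824 begins 2164 bases away and had 5 and 4 expected counts in the Fadd-line groups. Around Alx1, Lrriq1 had 1 and 6 expected counts there, and both genes had 0 in the Casp8 line. The snoRNA Gm22743 lies inside Mapt on the opposite strand, with 31, 14, 7 and 14 expected counts in the 4 groups.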

How the data were processed

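Total RNA libraries from 12 cultures (4 groups of 3) were made with a stranded kit and sequenced in pairs, per the labels' protocols. Per the labels and the submitters' processing notes, Trim Galore 0.5.0 trimmed the reads, STAR 2.7.5a placed them on mm10 with GENCODE M22, and RSEM counted them. The authors deposited 3 values per gene, which are expected counts, TPM and FPKM per the file headers. A further deposited table of endogenous retrovirus regions was not used here. Each table holds 55665 rows, of which 92 spike-ins were left out.

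The members and gene lists were chosen with earlier results of these data known. TPM gave the members, levels and spread; deposited FPKM served as an alternative. Expected counts were rounded, kept by filterByExpr (minimum count 10, 16396 genes), scaled by TMM and fitted with edgeR 4.0.16 in R 4.3.3 (1 mean per group, 12 libraries, common biological coefficient of variation 0.37). Calls are at a Benjamini-Hochberg adjusted p under 0.05. Alternatives were DESeq2 1.42.0, limma 3.58.1 (voom, and log2(TPM + 0.1)), scaling, filters, replicate blocks and leaving out libraries. Nothing in the labels ties cultures to separate animals, so p-values measure the spread between these cultures.

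Libraries of the same number deviated together in the Fadd line (correlations 0.66, 0.391 and 0.639, against -0.641 to 0.183 for different numbers). In the Casp8 line the pattern was weaker, with 0.203, 0.305 and 0.127 for the same number. There, knockout replicate 2 with put-back replicate 3 gave 0.144, above the lowest of these. Numbers were read as pairs, although no label explains the numbering. No libraries of a group agreed within sampling noise.

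Named genes are the targeted genes, the members, the 3 genes nearest outside each limit and, chosen after their values were seen, family members, neighbours and list genes. Gene positions are those of GENCODE M21 (also mm10), which matched 55094 of 55573 identifiers, and promoter sequences from RefSeq (GRCm38.p6), which matched 2 of the 4 members. Some genes are not reported here.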

Additional observations from a re-analysis of the deposited data

How the results depend on the processing

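The number of genes that met the rule was 11 with a lower limit of 0.2 TPM, 16 with an upper limit of 0.5 TPM and 2 with an upper limit of 2 TPM (Mapt and Zic1). It was 7 with FPKM in place of TPM (without Tbx20), 18 with the knockout groups alone and 27 with the put-back groups alone. Chosen after seeing the data, it was 12 without both replicate 1 libraries of the Casp8 line and 10 over all biotypes. Leaving out 1 library gave 3 to 6 genes, and without Casp8 put-back replicate 2 Tbx20 dropped out. The count of members called within the Fadd line was 1 with DESeq2, with limma-voom and with only the 6 Fadd-line libraries (Tbx20 each time), and 0 under the other 13 alternatives. The Mapt log2 difference turned to -0.19 without Fadd/Mlkl knockout replicate 1 and to -0.03 without put-back replicate 3, and it reached 1.33 without put-back replicate 1. The Zic1 and Alx1 differences stayed negative, from -0.8 to -0.33 and from -0.46 to -0.25. With FPKM the Alx1 groups overlapped, which left 2 genes without overlap. The median coefficient of variation over genes and groups was 13.5%, 9.58% to 15.5% when 1 library was left out and, chosen after seeing the data, 10.2% without both replicate 1 libraries of the Fadd line. With the replicate block within each line 0 members were called and Tbx20 had an adjusted p of 0.0574 in edgeR, and with the block over all 12 libraries 0.211. Sums of 14 to 95 expected counts per gene in the whole Casp8 line limit any comparison there.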

Other observations

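Without both replicate 1 libraries of the Casp8 line, 8 further genes met the rule, among them Gata4, Cmbl, Ly9, Slc6a15, St3gal6, Syt7 and Xlr. Gata4 was at 1.0, 0.97 and 1.03 TPM in the Fadd/Mlkl knockout and at 1.14, 1.51 and 1.4 TPM with Fadd put back. In the Casp8 line it was at 0.52 and 1.56 TPM in the replicate 1 libraries and at no more than 0.01 TPM in the other 4. Slc6a15, an amino acid transporter, was at 1.67, 3.8 and 5.34 TPM in the Fadd/Mlkl knockout and at 1.23, 2.88 and 4.25 TPM with Fadd put back, the reverse of the order of Mapt over the replicate numbers.

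Over all biotypes, the long noncoding RNA C130071C03Rik also met the limits, at 3.25 ± 0.382 TPM in the Fadd/Mlkl knockout and 3.41 ± 0.855 TPM with Fadd put back (SD, n = 3), against 0.0167 ± 0.0289 and 0.02 ± 0.0346 TPM in the Casp8 line. The remaining 5 were short noncoding RNAs and a pseudogene, such as the snRNA Gm23240 at 92.4 ± 22 and 66.1 ± 71.9 TPM. In a short RNA few reads can give a large TPM, and the counts of these genes are not given here.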
